A study of Mus musculus with 6 samples.

Results

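The genes described here are 36 markers and products of liver endothelial cells, read by every probe set of the array that is annotated with exactly 1 gene symbol, that of a listed gene. They are covered by 59 of the 45101 probe sets, and all 36 have at least 1 among the 18193 genes with a probe set of a single symbol. They were divided into 12 genes of sinusoidal endothelium, 20 general endothelial genes and 4 angiocrine factors, the last being ligands that endothelial cells release onto hepatocytes. Whole-liver RNA of male mice aged 3 weeks was hybridised to 1 array per sample. The mutant group (3 samples) was Srf loxP/loxP AlfpCre, with both copies of Srf flanked by loxP sites, and the control group (3 samples) was Srf loxP/+ AlfpCre, with 1 such copy. Mice of both groups thus carried the Cre transgene and at least 1 loxP-flanked allele, and no mouse without Cre is analysed here. AlfpCre joins regulatory sequences of the albumin and alpha-fetoprotein genes to Cre and is used to delete genes in hepatocytes and bile duct cells, so endothelial cells were not the cells targeted. The comparison asks whether endothelial transcripts of the whole organ differ when Srf is deleted from the neighbouring parenchyma.

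Sinusoidal endothelial cells line the capillaries of the liver lobule. They have open pores and no continuous basement membrane, and they clear waste molecules from blood through scavenger and lectin receptors such as Stab2 and Mrc1. Their growth and survival depend on VEGF, made in part by hepatocytes, acting on the receptors Kdr and Flt1, and on angiopoietins acting on Tek. In return they send WNT2 and R-spondin 3 to hepatocytes around the central vein, where these ligands sustain the pericentral programme, and BMP2 and BMP6, which set the output of the iron hormone hepcidin. Endothelium of larger vessels and of capillarised sinusoids carries more of proteins such as Vwf and Cd34.

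A signal is given as log2 of the scaled linear intensity, with values under 1 set to 1, so a log2 signal of 0 marks the floor. The trimmed mean of the deposited signals was between 37.3 and 58.1 on the mutant arrays and between 55.2 and 69.9 on the control arrays, and each array was multiplied to a common trimmed mean. Background was taken as the 95th percentile of probe sets of smell and taste receptors, a log2 signal of 3.04 in mutants and 2.87 in controls. Srf itself did not pass the test at either probe set, with log2 signals of 4.17, 5.24 and 2.54 on mutant arrays 1 to 3 and 5.31, 5.14 and 5.11 on control arrays 1 to 3 at its brighter probe set (adjusted p = 0.398, limma), where mutant 2 lay inside the control range. At the dimmer one it had 3.29, 0.00 and 1.99 on mutant arrays 1 to 3 and 3.00, 3.69 and 3.37 on control arrays 1 to 3 (adjusted p = 0.411, limma), where mutant 2 was the lowest array and mutant 1 lay inside the control range. Whether either probe set reads the sequence between the loxP sites is not known here. Across the kept probe sets, which are not independent, Pearson's r of mutant 2 with the 3 controls was 0.919 to 0.931, and with mutants 1 and 3 it was 0.827 and 0.907, while that of mutant 1 with the controls was 0.781 to 0.809. The hepatocyte markers were bright on every array, Alb between 12.87 and 13.30 in mutants and between 12.53 and 12.82 in controls. Of the 36 endothelial genes, 34 had group means above background in both groups at the brightest probe set. The exceptions there were Cd34 in mutants and Sox17 in controls, and a second Sox17 probe set was above background in controls and below it in mutants. The design text names 3 mutant and 3 control mice, and the sample labels do not say whether each sample was 1 animal or a pool. The p-values measure the spread between these samples. In RNA of a whole organ, fewer endothelial cells and less transcript per cell cannot be told apart.

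None of the 36 endothelial genes passed the test between mutant and control liver after adjustment over all probe sets. All 36 passed the filter on dim probe sets, by the mean over the 6 arrays, and 53 of their 59 probe sets did. With limma and Benjamini-Hochberg adjustment over 27022 probe sets, 0 of the 36 passed 0.05, where 0.114% of the 13144 genes kept did (0.0304% higher and 0.0837% lower in mutants), and the smallest adjusted p was 0.287, for Sox17. At an unadjusted p under 0.05 there were 3, namely Sox17, Flt1 and Bmp2, all higher in mutants, where 14.4% of all genes reached that level and 7.36% did so as higher. The groups did not overlap for 6 of the 36 genes (16.7%), 4 higher and 2 lower in mutants, where 24.9% of all genes had groups that did not overlap. Fitted log2 fold changes, mutant over control, ran between -1.65 and 1.61 with a median of -0.09, beside a median of 0.06 over all genes kept, and 21 were negative and 15 positive. On the deposited scaling, where the median of all genes was -0.39, 30 of the 36 were negative and the groups did not overlap for 2 genes, both lower in mutants.

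The test bounds some of these changes and leaves others wide. The 95% interval of the log2 fold change reached a median of 1.01 to either side of the estimate over the 36 genes, from 0.60 for Cldn5 to 2.68 for Dnase1l3. It lay wholly inside a change of 1 in either direction, a factor of 2 on the linear scale, for 6 genes, and inside a change of 2 for 26. The narrow cases include Cldn5, a tight junction protein (-0.36 to 0.83), Cdh5, the cadherin of endothelial junctions (-0.72 to 0.75), Plvap, the diaphragm protein of endothelial pores (-0.45 to 0.86), and Flt4, the receptor of VEGF-C (-0.64 to 0.70). Wide cases include Dnase1l3 (-4.26 to 1.11), Pecam1 (-3.34 to 1.03) and Sox18 (-3.33 to 0.59), whose intervals all reach below -3 on the log2 scale.

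**Figure D1:**
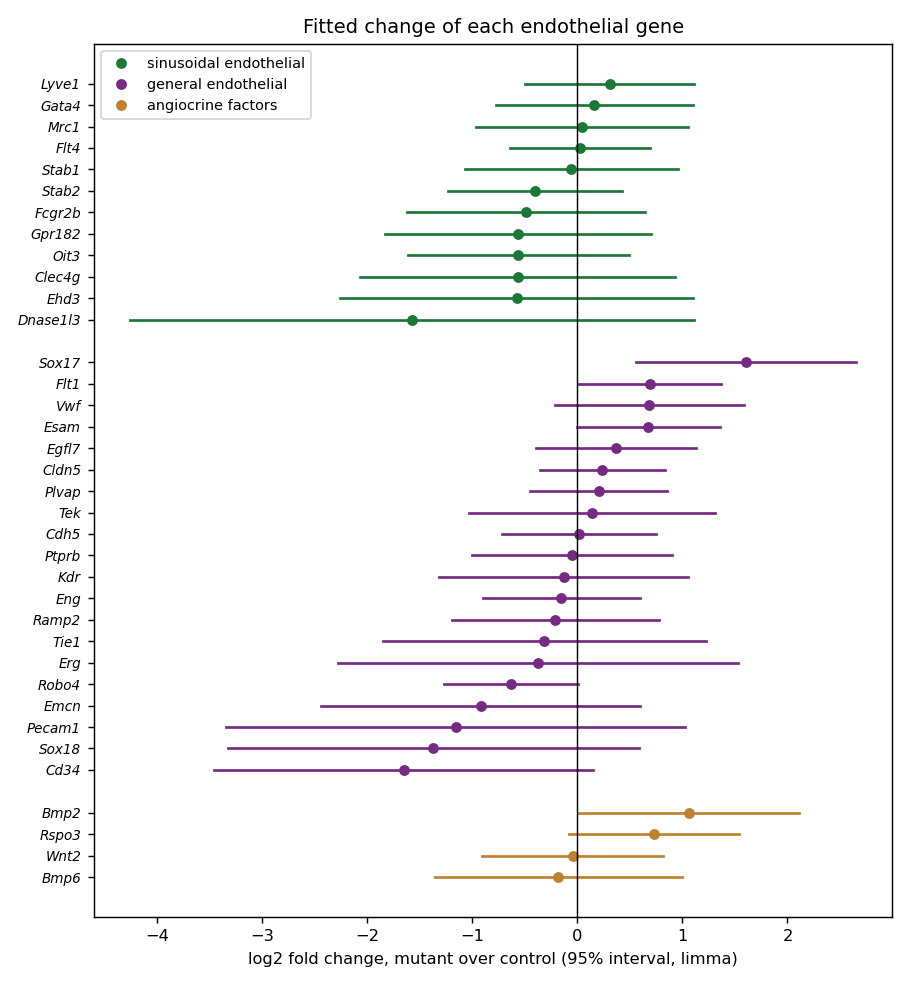
Fitted log2 fold change, mutant over control, of each of the 36 genes (points) with its 95% interval from limma (lines), by class. Only the intervals of Sox17, Flt1 and Bmp2 leave out 0, by unadjusted values, and the widest is that of Dnase1l3.

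Among the scavenger and lectin receptors of the sinusoid, mutant arrays lay on both sides of the controls. Stab2, stabilin 2, which clears hyaluronan from blood, gave log2 signals of 6.10, 7.49 and 6.78 on mutant arrays 1 to 3, against 7.14, 7.09 and 7.35 on control arrays 1 to 3. The limma estimate was a log2 change of -0.40 ± 0.36 (SE), with an adjusted p of 0.587. Mutants 1 and 3 were below all controls and mutant 2 above them, so the groups overlapped. The related scavenger receptor Stab1 had 5.08, 6.19 and 5.64 in mutants and 5.32, 5.23 and 6.53 in controls. For Lyve1, the hyaluronan receptor that sinusoids share with lymphatic vessels, the signals were 6.35, 7.62 and 6.71 in mutants and 6.49, 6.75 and 6.52 in controls. Mutant 1 was the lowest array and mutant 2 stood above every control for Lyve1, while for Stab1 control 3 was the highest of the 6.

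The mannose receptor Mrc1, which macrophages also make, had 6.63, 8.43 and 7.57 on the mutant arrays and 7.54, 7.16 and 7.79 on the control arrays. Clec4g, a C-type lectin of sinusoidal cells, ran at 6.43, 9.26 and 8.03 in mutants, against 8.56, 7.90 and 8.96 in controls. The mutants spanned 2.83 on the log2 scale for Clec4g and the controls 1.06, and limma gave -0.57 ± 0.65 (SE) for the log2 change, adjusted p = 0.674. Fcgr2b, the inhibitory Fc receptor that removes small immune complexes and is also found on B cells and macrophages, gave 6.69, 8.58 and 7.01 in mutants and 8.05, 7.44 and 8.25 in controls at its brightest probe set. At the brightest probe sets of all 6 receptors, mutant 1 was the lowest array and mutant 3 lay between mutants 1 and 2.

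The remaining sinusoidal genes had the same pattern, at its widest in Dnase1l3. This secreted DNase, which degrades DNA on cell debris, had log2 signals of 1.26, 6.33 and 5.69 in mutants and 6.37, 5.69 and 5.95 in controls, so mutant 1 was below background while mutants 2 and 3 were close to the controls (log2 fold change -1.58, SE 1.16, adjusted p = 0.519, limma). Ehd3, a protein of endosomal recycling, read 5.65, 8.95 and 7.5 in mutants and 7.58, 7.81 and 8.44 in controls. The orphan receptor Gpr182 had 4.87, 7.20 and 5.99 in mutants, against 6.47, 6.25 and 7.03 in controls. Each of these genes had mutant 1 below and mutant 2 at or above the control range, apart from Dnase1l3, for which mutant 2 lay just inside it. Oit3, a zona pellucida domain protein, gave 4.91, 6.59 and 6.15 in mutants and 6.45, 6.01 and 6.87 in controls. Flt4 had 6.47, 7.28 and 6.52 in mutants and 6.61, 6.70 and 6.88 in controls, a log2 fold change of 0.03. Gata4, the transcription factor that specifies sinusoidal endothelium and is also present in stellate cells, was at 4.30, 5.60 and 4.92 in mutants and 4.58, 4.49 and 5.26 in controls (log2 fold change 0.16, adjusted p = 0.86, limma). Over the 12 sinusoidal genes the median log2 fold change was -0.44, with 8 negative and 4 positive and none at an unadjusted p under 0.05. None of the 12 had groups that did not overlap.

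**Figure D2:**
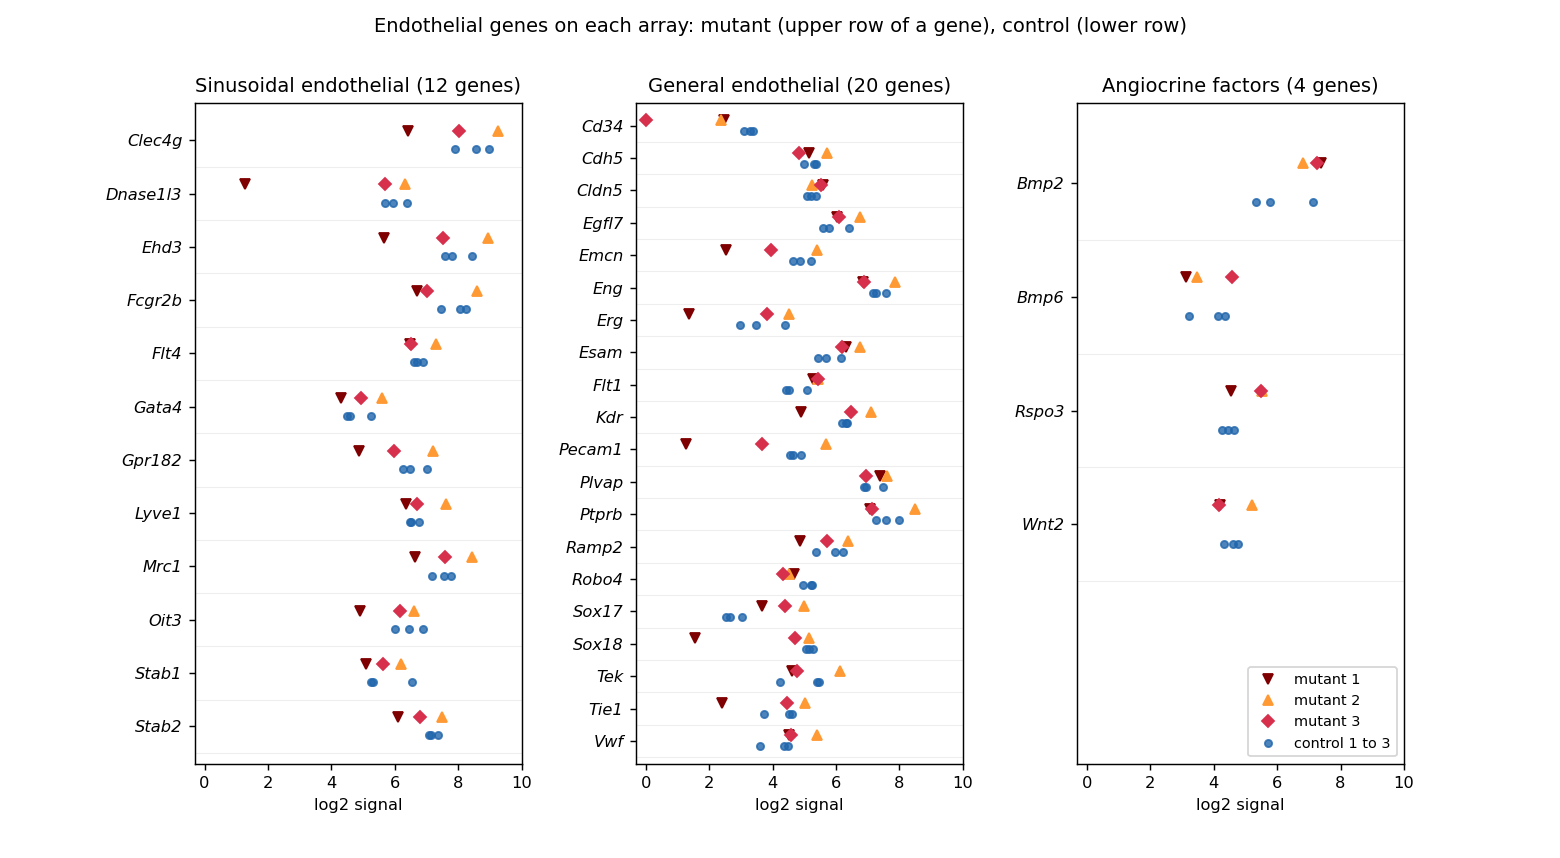
Log2 signal of each gene (horizontal axis) on the mutant arrays (upper row of each gene, 1 symbol per array) and the control arrays (lower row), by class, with the brightest kept probe set standing for the gene; symbols that coincide hide each other. Mutant 1 is the lowest of the 6 arrays for all 12 sinusoidal genes, and mutant 2 the highest for 9 of them.

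None of the receptors of general endothelium passed the adjusted test, and most had mutants on both sides of the controls. Kdr, the main signalling receptor for VEGF-A, had log2 signals of 4.90, 7.10 and 6.46 in mutants and 6.33, 6.19 and 6.35 in controls (log2 fold change -0.13, SE 0.51, adjusted p = 0.918, limma). The controls spanned 0.16 and the mutants 2.20, from below all controls to above them. Tek, the angiopoietin receptor, gave 4.62, 6.14 and 4.77 in mutants and 5.47, 4.24 and 5.39 in controls, and its partner receptor Tie1 2.40, 5.03 and 4.46 in mutants and 4.50, 3.73 and 4.61 in controls. Mutant 1 was below background for Tie1. Eng, endoglin, a coreceptor for BMP9 and TGF-beta, had 6.84, 7.85 and 6.87 in mutants, against 7.18, 7.25 and 7.59 in controls. Ramp2, which turns the calcitonin receptor-like receptor into an adrenomedullin receptor, read 4.86, 6.39 and 5.70 in mutants and 5.98, 5.38 and 6.23 in controls. For Eng and Ramp2 mutant 2 was again the highest of the 6 arrays, with adjusted p = 0.831 and 0.823 (limma).

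Junction and surface proteins differed in how far the mutants lay apart. Cdh5 had 5.15, 5.72 and 4.83 in mutants and 5.38, 5.29 and 4.98 in controls, Cldn5 5.60, 5.26 and 5.53 in mutants and 5.22, 5.09 and 5.36 in controls. Plvap gave 7.37, 7.6 and 6.94 in mutants and 7.48, 6.87 and 6.95 in controls, and the mutants of all 3 genes stayed within 1 of each other on the log2 scale. Ptprb, the phosphatase that restrains Tek and Kdr signalling, was at 7.06, 8.49 and 7.13 in mutants and 7.56, 7.27 and 7.99 in controls. Pecam1, the adhesion protein CD31 that also marks platelets and leukocytes, gave 1.29, 5.68 and 3.67 in mutants, against 4.55, 4.65 and 4.89 in controls. Emcn, the sialomucin endomucin, had 2.55, 5.41 and 3.96 in mutants and 4.86, 4.63 and 5.20 in controls. Pecam1 and Emcn were below background on mutant 1 and above every control on mutant 2, with log2 fold changes of -1.16 and -0.92 (adjusted p = 0.557 and 0.507, limma). Egfl7, a matrix protein secreted by endothelium, had 6.02, 6.76 and 6.11 in mutants and 5.58, 5.79 and 6.41 in controls.

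Of the endothelial transcription factors, Sox18 had 1.55, 5.14 and 4.71 in mutants and 5.16, 5.07 and 5.28 in controls, and the ETS factor Erg 1.35, 4.53 and 3.84 in mutants and 2.97, 3.49 and 4.38 in controls. Both were below background on mutant 1 and within or close to the control range on the other mutant arrays (adjusted p = 0.454 and 0.836, limma). Over the 20 general endothelial genes the median log2 fold change was -0.09, with 9 positive and 11 negative. At an unadjusted p under 0.05, 2 of the 20 were higher, where 7.36% of all genes were.

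All 6 genes with groups that did not overlap belonged to the general endothelial class, and none passed the adjusted test. Sox17, a transcription factor of arterial endothelium, had 3.66, 5.0 and 4.38 on the mutant arrays, against 2.53, 2.66 and 3.03 on the control arrays (log2 fold change 1.61, SE 0.45, adjusted p = 0.287, limma). Every mutant was above every control. The control mean was below background, and the mutant mean of this probe set, not of the gene as a whole, was 2.79-fold above the control background. That ratio leaves out the spread between arrays, so it is not a smallest rise. The unadjusted limma interval of the log2 fold change was 0.56 to 2.65. The values come from a probe set of the x_at kind, which can match several transcripts. The second Sox17 probe set pointed the other way, with 2.63, 3.75 and 0.82 in mutants and 3.74, 3.43 and 3.18 in controls (log2 fold change -1.05, adjusted p = 0.509, limma), and without probe sets of the x_at and s_at kind it stands for the gene. Flt1, the VEGF receptor that also acts as a decoy, had 5.27, 5.43 and 5.42 in mutants and 4.43, 4.52 and 5.10 in controls (log2 fold change 0.69, SE 0.29, adjusted p = 0.36, limma), and the sign turned when its probe sets were averaged (log2 fold change -0.055). Esam, an adhesion molecule of tight junctions, gave 6.33, 6.76 and 6.20 in mutants and 5.69, 5.43 and 6.14 in controls. For Flt1 and Esam, control 3 was the control nearest to the mutants. Vwf, von Willebrand factor, read 4.53, 5.41 and 4.59 in mutants and 3.61, 4.37 and 4.50 in controls (adjusted p = 0.429, limma).

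Robo4 and Cd34 were the pair with all mutants below all controls. Robo4, a guidance receptor that stabilises vessels, had 4.69, 4.52 and 4.33 in mutants, against 5.20, 4.97 and 5.26 in controls (log2 fold change -0.63, SE 0.28, adjusted p = 0.364, limma). Cd34, a sialomucin of capillary endothelium and blood progenitors, had 2.46, 2.39 and 0.00 in mutants and 3.11, 3.39 and 3.29 in controls (adjusted p = 0.381, limma). All mutant values of Cd34 lay below background, and the control mean was 1.17-fold above the mutant background. That ratio leaves out the spread between arrays, so it is not a smallest fall. The unadjusted limma interval of the log2 fold change, -3.46 to 0.15, takes in no change. For both genes mutant 1 was the highest of the 3 mutants, unlike in the sinusoidal genes.

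The promoters of these genes were examined because SRF binds the CArG box and endothelial genes are typically driven by ETS factors, which recognise GGAA. RefSeq windows of 300 bases around a gene start, most of them upstream (build GRCm38.p6) were at hand for 20 of the 36 genes, 24 windows in all. A CArG box on either strand was in 0 of the 24 windows, and in 1.63% of the 32851 windows of all genes. GGAA or its complement was in 22 of the 24, against 96.0% of all windows. The windows of Flt1, Robo4 and Cd34 are shown, the 3 genes with a window whose groups did not overlap, 5′ to 3′ in the direction of the gene, with GGAA and TTCC in capitals. They lie at chr5:147725962-147726261, minus strand, for Flt1, chr9:37401722-37402021, plus strand, for Robo4 and chr1:194938571-194938870, plus strand, for Cd34.
Flt1: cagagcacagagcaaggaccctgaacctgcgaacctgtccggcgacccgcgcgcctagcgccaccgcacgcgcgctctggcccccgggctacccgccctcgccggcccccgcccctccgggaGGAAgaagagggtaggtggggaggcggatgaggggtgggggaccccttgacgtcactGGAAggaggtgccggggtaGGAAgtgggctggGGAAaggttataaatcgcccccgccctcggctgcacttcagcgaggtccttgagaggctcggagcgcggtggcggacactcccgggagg
Robo4: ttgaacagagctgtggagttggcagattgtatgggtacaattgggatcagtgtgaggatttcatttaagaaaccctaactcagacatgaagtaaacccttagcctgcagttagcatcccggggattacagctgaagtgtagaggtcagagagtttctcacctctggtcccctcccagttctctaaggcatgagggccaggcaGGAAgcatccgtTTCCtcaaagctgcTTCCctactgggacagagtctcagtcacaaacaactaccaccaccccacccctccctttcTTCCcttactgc
Cd34: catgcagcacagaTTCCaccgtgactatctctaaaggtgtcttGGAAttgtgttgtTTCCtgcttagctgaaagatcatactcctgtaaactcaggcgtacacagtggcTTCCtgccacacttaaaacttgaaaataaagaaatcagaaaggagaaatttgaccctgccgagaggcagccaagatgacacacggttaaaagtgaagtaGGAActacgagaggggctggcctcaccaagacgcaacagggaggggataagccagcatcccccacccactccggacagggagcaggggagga
The Flt1 and Robo4 windows hold 4 such cores each and that of Cd34 holds 5, beside a median of 3 over all windows. A match in these windows is a description of the letters, and no match says only that the letters are not there.

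Of the 4 angiocrine factors, Bmp2 and Rspo3 had the higher means in mutants. Bmp2, which with BMP6 tells hepatocytes of iron load, had log2 signals of 7.37, 6.80 and 7.26 on mutant arrays 1 to 3, against 5.79, 5.34 and 7.13 on control arrays 1 to 3 (log2 fold change 1.06, SE 0.45, adjusted p = 0.362, limma). Control 3 lay inside the mutant range, so the groups overlapped. Rspo3, the R-spondin of central vein endothelium, gave 4.54, 5.53 and 5.48 in mutants and 4.27, 4.45 and 4.64 in controls (log2 fold change 0.73, SE 0.35, adjusted p = 0.384, limma). Mutants 2 and 3 were above every control and mutant 1 was not. Bmp6 had 3.12, 3.49 and 4.58 in mutants and 4.37, 3.23 and 4.14 in controls, and Wnt2 4.20, 5.20 and 4.17 in mutants and 4.76, 4.31 and 4.62 in controls. The log2 fold changes were -0.18 for Bmp6 and -0.04 for Wnt2, with 95% intervals of -1.36 to 0.99 and -0.91 to 0.82. The median over the 4 was 0.34, and it was -0.11 on the deposited scaling, where the median of all genes was -0.39.

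Genes that these ligands are known to act on were counted from lists chosen for the pathway. Of 14 targets of WNT and R-spondin in pericentral hepatocytes, 0 passed over all probe sets (limma), and 3 had an unadjusted p under 0.05, all with higher means in mutants, where 7.36% of all genes were higher at that level. They were Oat, Lhpp and Slc1a2, named after their values were seen. The list's median log2 fold change was 0.19. Its 3 brightest genes were the P450s Cyp2e1 and Cyp1a2 and the aminotransferase Oat. Cyp2e1 had 13.17, 12.86 and 12.98 in mutants and 12.81, 12.64 and 12.77 in controls, a log2 fold change of 0.26, and Cyp1a2 9.31, 12.45 and 10.89 in mutants and 12, 11.89 and 12.34 in controls. Mutant 1 was the lowest array for Cyp1a2 and the highest for Cyp2e1. Oat gave 11.31, 11.87 and 11.78 in mutants and 11.02, 10.16 and 10.75 in controls (log2 fold change 1.01, adjusted p = 0.287, limma).

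Of 9 targets of BMP and SMAD signalling all 9 had a positive log2 fold change, with a median of 0.81, where 54.1% of all genes were positive. None passed over all probe sets (limma), and Id2 and Bambi were higher at an unadjusted p under 0.05, where 7.36% of all genes were. The hepcidin gene Hamp had 13.20, 10.66 and 12.11 in mutants and 11.83, 7.57 and 11.51 in controls (log2 fold change 1.69, SE 1.12, adjusted p = 0.478, limma), and its copy Hamp2 10.75, 11.66 and 11.38 in mutants and 11.78, 6.46 and 12.39 in controls. For both, control 2 was far below the other 5 arrays, and the groups overlapped. The median shift of the 9 targets from the control mean was -0.64 on control 2, against 0.26 and 0.38 on controls 1 and 3. Id2, an inhibitor of basic helix-loop-helix factors that BMP signals induce, had 11.26, 8.11 and 9.53 in mutants and 8.33, 6.99 and 8.05 in controls. The near-identical Hamp and Hamp2 may share signal.

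Ligands that act on endothelial receptors were followed in a list of 12, of which 9 passed the filter and 0 the adjusted test (limma). Vegfa, the ligand of Kdr and Flt1, had 7.30, 7.16 and 6.5 in mutants and 6.65, 6.52 and 6.33 in controls (log2 fold change 0.49, SE 0.28, adjusted p = 0.435, limma). Gdf2, which encodes BMP9, the ligand of endoglin made by stellate cells, gave 4.97, 7.68 and 6.31 in mutants and 7.0, 7.06 and 7.48 in controls, and Vegfb 5.97, 5.48 and 4.69 in mutants and 5.27, 5.49 and 5.27 in controls. Gdf2 followed the array order of the sinusoidal genes and Vegfa and Vegfb did not. At an unadjusted p under 0.05 Vegfc was lower, with 3.90, 4.44 and 3.24 in mutants and 4.99, 4.93 and 5.30 in controls (log2 fold change -1.21, adjusted p = 0.305, limma). Vegfd was higher, with 4.40, 4.40 and 4.88 in mutants and 2.61, 3.90 and 3.70 in controls (log2 fold change 1.16, adjusted p = 0.337, limma). Vegfc and Vegfd encode ligands of Flt4 and were named after their values were seen.

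The largest contrast in these genes was among the mutants. Mutant 1 was the lowest of the 6 arrays for 22 of the 36 endothelial genes, where it was lowest for 31.6% of all genes kept, and mutant 2 was the highest for 27 of the 36, where it was highest for 13.8% of all genes. The mutants came in the order mutant 1, mutant 3, mutant 2 from low to high for 27 of the 36, where 23.1% of all genes had that order. At the brightest probe sets, both the lowest place of mutant 1 and that order held in 12 of the 12 sinusoidal genes. For the 20 general endothelial genes they held in 9 and 14. With the probe sets of a gene averaged, each held in 10 of the 12 sinusoidal genes. The order was absent at another kept probe set of Dnase1l3, Fcgr2b, Flt4, Gata4 and Lyve1. Mutant 2 exceeded mutant 1 by a median of 1.74 on the log2 scale over the sinusoidal genes, 1.17 over the general endothelial genes and 0.02 over all genes. Within the mutants 11 of the 36 genes spanned more than 2 on the log2 scale and within the controls none did. A wider spread of the mutants was not particular to these genes. The mutants spanned more than the controls for 30 of the 36 (83.3%), where they did for 75% of all genes. The median span was 1.41 in mutants and 0.68 in controls over the 36, and 0.98 and 0.48 over all genes. These counts describe the arrays, since genes of 1 cell type on the same array are not independent, and the order was noticed in these data.

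Endothelial genes outside the 36 had this split to differing degrees. In a list of 37 other endothelial genes, 35 of them kept, mutant 2 exceeded mutant 1 by a median of 1.36, the order mutant 1, 3, 2 held for 22 (62.9%), and the median shift from the control mean was -0.51, 0.58 and 0.12 on mutants 1 to 3. Over the sinusoidal genes the shifts were -1.16, 0.64 and -0.31 on mutants 1 to 3, and -0.07, -0.32 and 0.38 on controls 1 to 3. In that list 0 of 35 passed the adjusted test (limma), with S1pr1 lower and Efnb2 higher at an unadjusted p under 0.05, and the median log2 fold change was 0.07. Its brightest genes were Ece1, with 6.78, 8.95 and 8.60 in mutants and 8.89, 8.93 and 8.73 in controls, Nrp1, with 8.71, 7.78 and 6.91 in mutants and 8.20, 7.64 and 8.0 in controls, and Aqp1, with 6.30, 8.20 and 6.81 in mutants and 7.72, 6.84 and 8.34 in controls. Ece1, the protease that activates endothelin, and the water channel Aqp1 had the order of the sinusoidal genes, and Nrp1, the VEGF coreceptor neuropilin 1, did not. Of 22 other endothelial transcription factors kept, 0 passed the adjusted test (limma), and the median was -0.04. At an unadjusted p under 0.05, 4 were higher (Ets2, Gata6, Klf4 and Foxo1) and 1 lower (Sox7). Of all genes, 7.36% were higher and 7.01% lower at that level. Whether endothelial or other liver cells gave the signals of these factors was not tested. The order held for 8 of these 22 (36.4%, beside 23.1% of all genes), and mutant 2 exceeded mutant 1 by a median of 0.54. The brightest were Hhex, with 8.39, 8.52 and 8.05 in mutants and 9.51, 8.15 and 7.89 in controls, Foxo1, with 8.44, 8.0 and 8.27 in mutants and 7.46, 7.21 and 8.01 in controls, and Maf, with 5.52, 8.45 and 7.08 in mutants and 8.23, 7.71 and 7.91 in controls. Of 11 further angiocrine and vessel ligands kept, 0 passed, Col4a1 and Col4a2, chains of basement membrane collagen, were lower at an unadjusted p under 0.05, and the median was -0.30. The order held for 6 of the 11 (54.5%), and mutant 2 exceeded mutant 1 by a median of 0.71. The chemokine Cxcl12, the brightest of them, had 5.74, 8.82 and 8.08 in mutants and 8.79, 8.66 and 8.49 in controls. The p-values of the 9 genes named here at that level are unadjusted, and their adjusted p lay between 0.299 and 0.359.

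**Figure D3:**
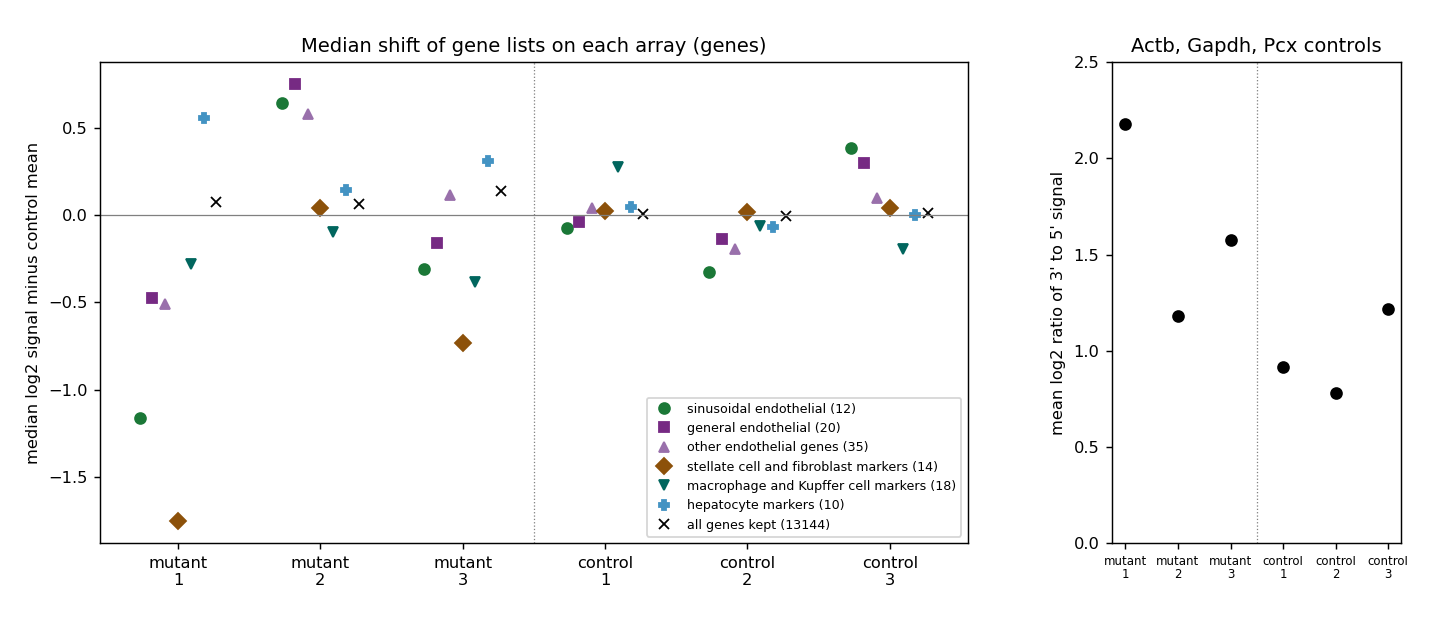
Left, median log2 signal minus the control mean of each gene list (number of genes kept in brackets) on each array; right, mean log2 ratio of 3' to 5' signal over the array's degradation controls for Actb, Gapdh and Pcx. The sinusoidal median is -1.16 on mutant 1 and 0.64 on mutant 2, and mutant 1 has the highest 3' to 5' ratio, 2.18.

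The RNA quality measure and markers of other cell types also varied between these arrays. The mean log2 ratio of 3' to 5' signal of the control transcripts, which is higher where RNA is more degraded or less fully copied, was 2.18, 1.18 and 1.57 on mutants 1 to 3 and 0.91, 0.78 and 1.22 on controls 1 to 3. Among the mutants its order is the reverse of that of the sinusoidal genes, and among the controls it is not, since control 3 had both the highest ratio and the highest sinusoidal median. Per transcript the groups gave exact permutation p = 0.2 for Actb, 0.1 for Gapdh and 0.2 for Pcx, where 0.1 is the smallest that 3 against 3 arrays allow. With this index as a covariate, 32 of the 36 log2 fold changes were positive and their median was 0.56, beside 0.09 over all genes. Again none passed (limma, smallest adjusted p = 0.75). At an unadjusted p under 0.05 there were 4, all higher, where 5.72% of all genes reached that level in either direction.

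The 14 markers of stellate cells and fibroblasts, all kept, had median shifts of -1.75, 0.04 and -0.73 on mutants 1 to 3. Their linear signals were summed on each array, so the brightest genes weigh most. The log2 of that sum was 10.15 to 11.79 in mutants and 11.70 to 11.86 in controls. Their mutants came in the order 1, 3, 2 for 11 of 14 genes. The 6 smooth muscle and pericyte markers kept of 7 had shifts of -2.25, 0.14 and -0.19. The order held in 5 of the 6, and mutant 1 was the lowest array for all 6. The log2 of their summed linear signals was 7.26 to 10.02 in mutants and 8.77 to 9.03 in controls. For the 18 macrophage and Kupffer cell markers, all kept, the shifts were -0.28, -0.10 and -0.38 and the order held in 7 of 18. Their summed linear signals had a log2 of 10.86 to 11.31 in mutants and 11.22 to 11.66 in controls. Csf1r, the receptor for colony stimulating factor 1, had 8.52, 8.89 and 8.40 in mutants and 9.19, 8.64 and 8.72 in controls. The 10 hepatocyte markers kept of 13 shifted by 0.55, 0.14 and 0.31. Their summed linear signals had a log2 of 15.86 to 16.27 in mutants and 15.61 to 15.76 in controls. Mutant 1 was the highest of the 6 arrays for 7 of these 10 and the lowest for 2, namely Apob, with 10.85, 12.22 and 12.24 in mutants and 12.05, 12.02 and 12.22 in controls, and Asgr1, with 9.38, 10.24 and 10.25 in mutants and 10.42, 10.49 and 10.51 in controls, both named after their values were seen. Whether cell composition or RNA quality has a part in the endothelial values of mutant 1 was not tested.

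Markers of blood cells, lymphatic vessels and bile ducts were summed in the same way, and each sum is given as the log2 of the summed linear signals. Of the 10 T and NK cell markers 3 were kept, Cd3e was below the filter and Cd3g was at the floor on mutant 1. The 3 kept had sums of 4.61 to 5.26 in mutants and 4.89 to 5.39 in controls. The 6 B cell markers kept of 7 had sums of 5.61 to 5.97 in mutants and 5.85 to 6.23 in controls. The 5 platelet markers kept of 6 had sums of 7.02 to 7.62 in mutants and 7.0 to 7.72 in controls, and the 4 erythroid markers kept of 8 had 6.15 to 8.69 in mutants and 8.09 to 9.0 in controls. The 4 lymphatic markers kept of 5 had sums of 7.25 to 9.34 in mutants and 8.98 to 9.55 in controls, the brightest being Reln, which the stellate list also holds. Prox1, the next brightest, had 5.03, 4.93 and 5.41 in mutants and 5.15, 4.87 and 5.32 in controls. Whether lymphatic vessels or other liver cells gave the Prox1 signal was not tested. The 4 cholangiocyte markers kept of 7 had sums of 5.29 to 5.97 in mutants and 5.08 to 5.20 in controls. None of the genes in these lists passed the adjusted test (limma). The order mutant 1, 3, 2 held for 3 of the 4 erythroid and 2 of the 3 T and NK cell markers. It held for 1 of the 4 lymphatic and 1 of the 4 cholangiocyte markers, and for 0 of the B cell and platelet markers. The part of these cells in the endothelial values was not tested.

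A single mutant array decided the direction of many endothelial genes. Without mutant 1, 28 of the 36 log2 fold changes were positive, with a median of 0.18, 0 passed the adjusted test and 6 (16.7%) had an unadjusted p under 0.05 (limma), where 15% of all genes did. Without mutant 2, 27 were negative, with a median of -0.44, 0 passed (limma), and 11 had an unadjusted p under 0.05, 9 of them lower, where 12.3% of all genes were lower at that level. The 9 lower genes were Cd34, Clec4g, Ehd3, Emcn, Fcgr2b, Gpr182, Pecam1, Sox18 and Stab2, and the smallest adjusted p was 0.111. The groups then did not overlap for 19 of the 36 (52.8%), where they did not for 46.2% of all genes. Of the 19, 13 were lower, where 19.8% of all genes were lower without overlap. The sinusoidal median alone moved to 0.17 without mutant 1 and to -0.84 without mutant 2.

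Probe sets of the same gene did not always point the same way. Of the 36 genes, 11 had several probe sets kept, and for 5 of these every probe set had the same sign, namely Dnase1l3, Egfl7, Ehd3, Flt4 and Lyve1. The 4 probe sets of Egfl7 gave log2 fold changes between 0.25 and 0.75, and those of Ehd3 -0.58 and -0.67. For Flt1 the brightest probe set gave 0.69 and the other 3 gave -0.74, 0.25 and -0.43, with signals near background. For Fcgr2b 3 probe sets were negative, at -0.49, -1.0 and -0.46, and the other, of the x_at kind, gave 0.15. Eng, Gata4 and Ptprb also had signs that differed, with fitted values between -0.46 and 0.28, and Sox17 had the widest gap, 1.61 against -1.05. Another 2 probe sets list Ramp2 together with Vps25 and were not assigned to a gene.

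**Figure D4:**
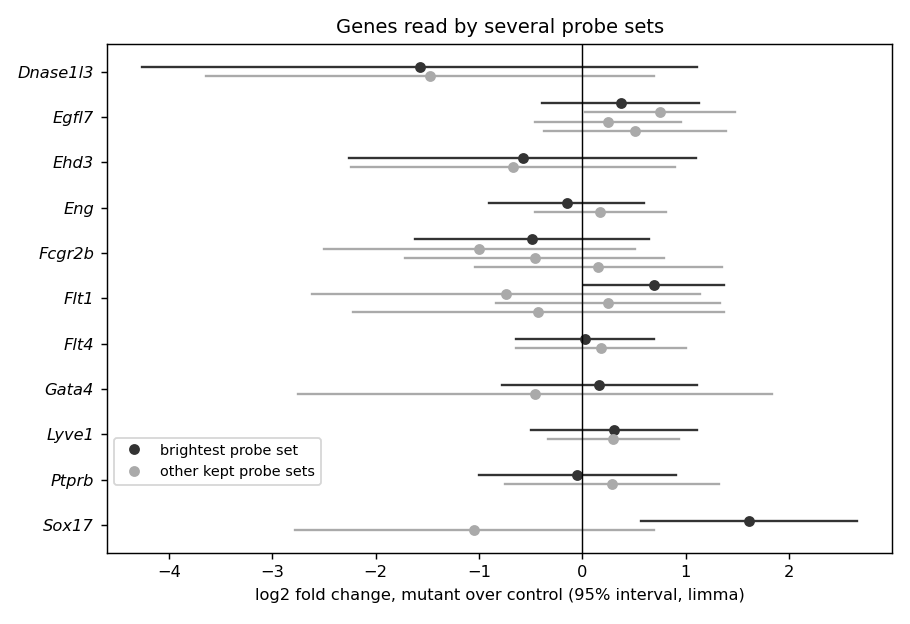
Log2 fold change, mutant over control, of every kept probe set of the 11 genes with several (points), with 95% intervals from limma (lines); the brightest probe set of a gene is in black. The points of Sox17 lie on opposite sides of 0, at 1.61 and -1.05.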

How the data were processed

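Liver RNA of 6 samples was hybridised to Affymetrix arrays. The values are linear signal intensities as deposited, 1 per probe set, and GCOS is named in the submitters' processing notes. The sources used here do not give its settings. Each array was scaled to the mean of the arrays' trimmed means (2% left off each end), signals under 1 were set to 1, and log2 was taken. Probe sets in the lower 40% by mean were left out. Mutants were compared with controls by limma 3.58.1 in R 4.3.3 (lmFit, eBayes with a variance trend), and p-values were adjusted by Benjamini-Hochberg across the kept probe sets at 0.05, and the code was tested on simulated data. The brightest kept probe set with a single symbol stands for a gene. Samples of a group by the labels are its replicates. Every member is named, and of each further list up to 3 genes of highest mean signal; other genes named at an unadjusted p were chosen after their values were seen. Members, lists and tests were chosen with earlier results of these data known.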

Additional observations from a re-analysis of the deposited data

How the results depend on the processing

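No member passed the adjusted test (limma) in the main analysis or under any of the 18 alternatives. The smallest adjusted p was 0.110 (limma), without mutant 1. The alternatives gave between 1 and 11 members at an unadjusted p under 0.05, where 5.72% to 24.8% of all genes reached that level. The 11 came without mutant 2, the setting with the 24.8%. The samples share only replicate numbers: deviations of same-numbered mutant and control arrays correlated at -0.04, 0.02 and 0.04. With the replicate block 0 members passed and 2 (Bmp2 and Sox17) had an unadjusted p under 0.05, where 13% of all genes did. The genes passing over the whole array numbered 15, and 0 without the filter, 37 with the lower 20% left out, 5 without the variance trend, 5 with a floor of 16, 67 on log2(signal + 32), 3 with the 3' to 5' covariate, 78 without mutant 1, 308 without mutant 2, 7 without mutant 3, and 3, 1 and 2 without controls 1, 2 and 3. Groups did not overlap for 6 members (16.7%, beside 24.9% of all genes). On the deposited scaling they did not for 2 (5.56%, beside 23.5%). The share was 11.1% with centring on the array median (beside 24.8%) and with the mean over probe sets (beside 24.2%). With a floor of 16 it was 11.4% (beside 24.4%). Leaving out 1 array at a time the number of members ran between 6 and 19. It was highest without mutant 2 (52.8%, beside 46.2% of all genes), and was 10 without control 3 (27.8%, beside 34.9%).

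The deposited scaling moved the median of all genes to -0.39 and centring on the array median moved it to -0.17, beside 0.06. On the deposited scaling the angiocrine median was -0.11, 30 of 36 members were negative, and the sign turned for Cdh5 (-0.44), Cldn5 (-0.21), Egfl7 (-0.079), Flt4 (-0.42), Gata4 (-0.29), Lyve1 (-0.14), Mrc1 (-0.41), Plvap (-0.25) and Tek (-0.31). With centring it turned for Cdh5 (-0.22), Flt4 (-0.20), Gata4 (-0.068), Mrc1 (-0.19), Plvap (-0.028) and Tek (-0.089). With a floor of 16 it turned for Bmp6 (0.023), Erg (0.048) and Tie1 (0.13). With the mean over probe sets it turned for Eng (0.011), Flt1 (-0.055), Gata4 (-0.15) and Ptprb (0.12), and without s_at and x_at probe sets for Sox17 (-1.05). With the 3' to 5' covariate the general and sinusoidal medians were 0.60 and 0.60, and the sign turned for Cldn5 (-0.010), Clec4g (0.77), Dnase1l3 (1.37), Ehd3 (1.09), Emcn (0.53), Eng (0.28), Erg (1.18), Fcgr2b (0.33), Gpr182 (0.53), Kdr (1.09), Oit3 (0.19), Pecam1 (1.23), Ptprb (0.51), Ramp2 (0.45), Sox18 (0.68), Stab1 (0.21), Stab2 (0.30), Tie1 (1.01) and Wnt2 (0.42). The cause of these changes was not tested.

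Leaving out 1 array at a time, the class medians ran from -0.50 to 0.19 for general, -0.84 to 0.17 for sinusoidal and 0.25 to 0.54 for angiocrine genes. Single genes whose sign turned ran from Bmp6 -0.61 to 0.12, Cdh5 -0.23 to 0.21, Clec4g -1.24 to 0.17, Dnase1l3 -2.53 to 0.0073, Ehd3 -1.37 to 0.28, Eng -0.48 to 0.022, Erg -1.02 to 0.57, Flt4 -0.24 to 0.17, Gata4 -0.17 to 0.48, Gpr182 -1.15 to 0.011, Kdr -0.60 to 0.50, Lyve1 -0.055 to 0.58, Mrc1 -0.40 to 0.50, Ptprb -0.51 to 0.20, Ramp2 -0.58 to 0.18, Stab1 -0.33 to 0.36, Tek -0.34 to 0.42, Tie1 -0.85 to 0.47 and Wnt2 -0.38 to 0.13. Under 6 other settings, chosen after seeing the data, mutant 1 was lowest for 17 to 27 members, mutant 2 highest for 26 to 28, and the order mutant 1, 3, 2 held for 22 to 30, and for 10 to 12 of the sinusoidal genes. The highest counts, 27 and 30, came on the deposited scaling, where mutant 1 was lowest for 48.3% of all genes and the order held for 43.9%, beside 31.6% and 23.1% in the main setting. Only 3 arrays a group limit the precision.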
